A study of Rattus norvegicus with 12 samples.

Results

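The small leucine-rich proteoglycans are secreted matrix proteins built around a stretch of leucine-rich repeats, and 9 of their genes were looked up by symbol in the table of reads per gene from rat hearts. Of these 9 symbols, 7 named a gene in the table: Dcn, Bgn, Aspn, Lum, Fmod, Prelp and Omd. All 7 had enough reads to be tested, among 18182 genes tested of the 30560 listed. Ogn and Podn were not found by symbol, so their reads were not analysed here. A further 7162 listed genes carried no symbol, and none of them was assigned to these names.

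Most of these proteins sit on the surface of collagen fibrils, where they limit how thick a fibril grows and how fibrils are spaced. Decorin, biglycan and asporin form the first class of the family, with chondroitin or dermatan sulfate chains on decorin and biglycan. Lumican, fibromodulin, PRELP and osteomodulin belong to the second class, in which keratan sulfate chains are common. In the heart they are made mainly by fibroblasts, and in a scar they take part in ordering the new collagen. Several of them also bind growth factors of the TGF-beta family, and soluble biglycan can bind Toll-like receptors.

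The libraries came from 12 male Wistar rats, 1 library per rat, operated on at 7 weeks of age. The 4 Sham rats had the chest opened without a ligature, and were given a vehicle of 0.5% carboxymethylcellulose. The 4 MI rats had a permanent ligation of the left anterior descending coronary artery and the same vehicle, and the 4 MI + UA rats had the ligation and urolithin A, a compound that gut bacteria make from plant polyphenols. Urolithin A, at 50 mg per ml, and vehicle were given daily by oral gavage for 8 weeks from 24 h after surgery. Another passage of the study gives a later start and states the dose differently, so the start and the dose are uncertain. No group was given urolithin A after sham surgery, so an effect of the compound on hearts without an infarct was not measured. RNA was taken from 20 µm sections of fixed, paraffin-embedded heart cut from its middle region, and the labels do not give the proportions of scar and surviving muscle in a section. Fewer cells of a type and less RNA per cell cannot be told apart in such sections.

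Levels are given as CPM, the standard unit in which the reads of a gene are divided by the library's total, here after the totals were rescaled with the TMM method. They can be compared between rats for one gene, not between genes, because gene lengths were not used. Each library held between 6228706 and 19031695 reads on genes, and the 7 proteoglycan genes together received between 3510 and 23082 of them. The 13 mitochondrially encoded protein genes took 54.0% to 58.6% of gene reads in Sham and 50.2% to 57.6% in MI. In MI + UA they took 50.2% to 56.8%. Reads assigned to a gene made up 46.9% to 48.3% of all counted reads in Sham and 43.3% to 44.8% in MI, without overlap, and 42.9% to 47.2% in MI + UA. TMM factors were 0.890 to 0.954 in Sham, 0.934 to 1.14 in MI and 0.934 to 1.14 in MI + UA. The labelled tissue was borne out by cardiomyocyte markers, whose summed level was 36730 to 58971 CPM over all 12 rats. The label of 1 rat differs between sources: MI + UA rat 66 is given urolithin A by its sample label, but a supplementary table of the study lists it with the vehicle-treated MI rats. It was counted as MI + UA, and the log2 fold changes of both MI + UA comparisons are also given without it.

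Infarction was accompanied by more RNA of 6 of the 7 genes, and decorin was the gene that did not pass the test. Comparing MI with Sham, Bgn, Fmod, Prelp, Aspn, Lum and Omd rose, by 3.65-fold for Bgn down to 1.68-fold for Omd. A gene is said to have risen or fallen when its p-value from edgeR's quasi-likelihood test, adjusted over all genes tested, was under 0.05. Of all genes tested, 11.4% passed by this rule: 5.82% rose and 5.53% fell. In all 6 risen genes every MI rat was above every Sham rat, which was the case for 8.12% of all genes tested, while 7.56% had every MI rat below every Sham rat. The median log2 fold change of the 7 genes was 0.98, beside 0.03 for all genes tested. Leaving out any 1 of the 12 rats left the number that rose at 6. Scaling with DESeq2 size factors or without the 13 mitochondrially encoded protein genes left it at 6 as well. The part of the lower share of reads on genes in MI was not tested.

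**Figure D1:**
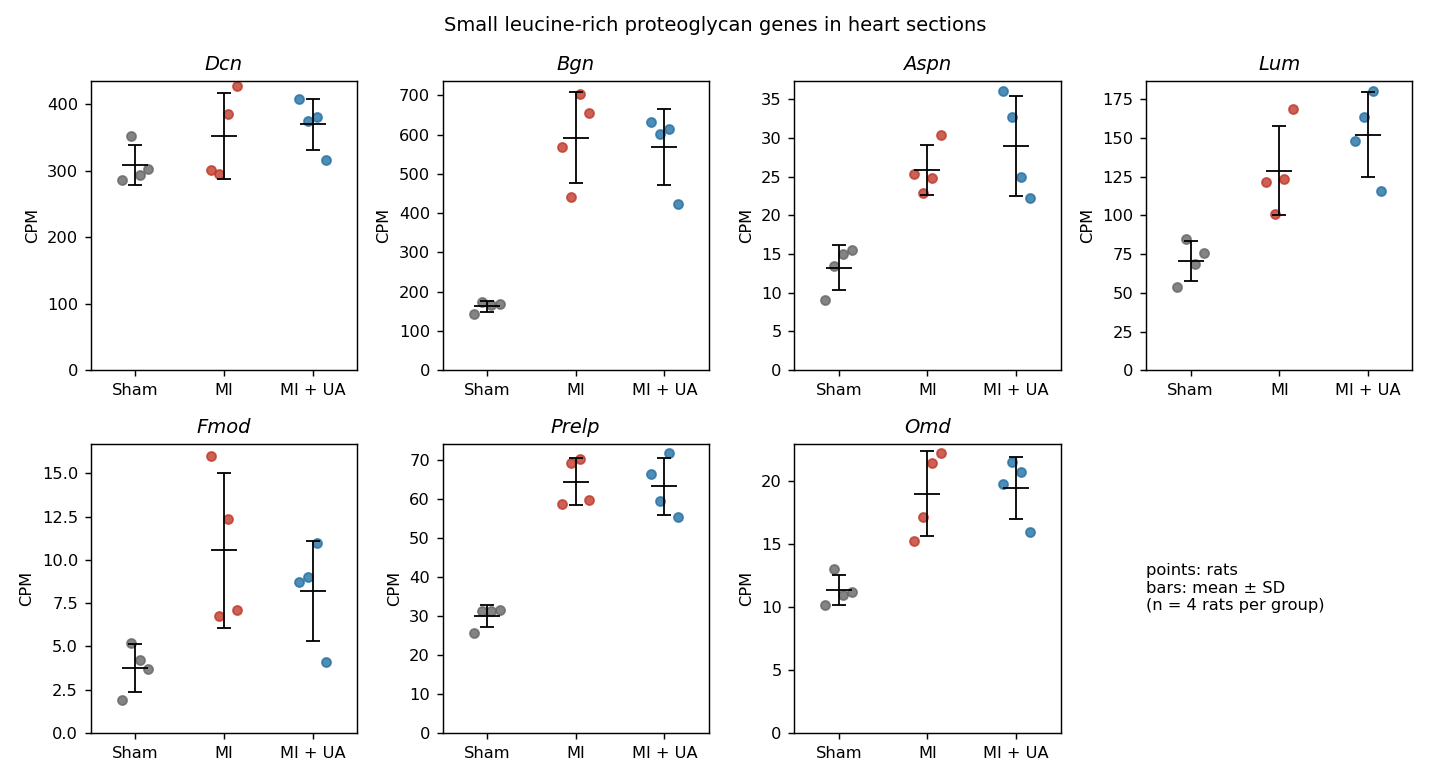
Level of each of the 7 genes in CPM on the vertical axis, which starts at 0, for the 3 groups on the horizontal axis. Points are rats, and bars are the mean ± SD (n = 4 rats per group). MI and Sham points overlap for Dcn but not for the other 6 genes, and MI + UA points overlap MI points in all 7.

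In the first class, Bgn (ENSRNOG00000055962), which encodes biglycan, had the largest change. It stood at 143, 173, 166 and 168 CPM in Sham rats 12, 17, 32 and 38, at 569, 441, 705 and 656 CPM in MI rats 36, 57, 61 and 89, and at 633, 601, 614 and 424 CPM in MI + UA rats 29, 58, 64 and 66. Even the lowest infarcted heart, MI + UA rat 66, was above the highest Sham heart, while MI and MI + UA rats overlapped. Means were 163 ± 13.3 CPM for Sham and 593 ± 116 CPM for MI (SD, n = 4 rats each), which gave a log2 fold change of 1.87 with a standard error of 0.13 (edgeR adjusted p = 2.99e-08).

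Dcn (ENSRNOG00000004554) encodes decorin, which binds collagen fibrils and TGF-beta and carries a single glycosaminoglycan chain. Its levels were 286, 353, 294 and 303 CPM in Sham rats 12, 17, 32 and 38, 302, 296, 385 and 428 CPM in MI rats 36, 57, 61 and 89, and 408, 375, 381 and 317 CPM in MI + UA rats 29, 58, 64 and 66. MI rats 61 and 89 lay above the Sham range, whereas MI rats 36 and 57 lay within it. The MI mean of 353 ± 64.6 CPM (SD, n = 4) was 1.14-fold the Sham mean of 309 ± 30.1 CPM (SD, n = 4), with a 95% interval from 0.971-fold to 1.34-fold (edgeR adjusted p = 0.328). The upper end of that interval lay under the lower end of the interval for Bgn, 3.00-fold.

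Aspn (ENSRNOG00000015410) encodes asporin, which has a run of acidic residues and binds collagen and TGF-beta. It was read at 9.03, 13.4, 15 and 15.5 CPM in Sham rats 12, 17, 32 and 38, at 25.3, 22.9, 24.8 and 30.4 CPM in MI rats 36, 57, 61 and 89, and at 36, 32.8, 24.9 and 22.3 CPM in MI + UA rats 29, 58, 64 and 66. The infarcted hearts of both groups were all above the Sham hearts, and MI + UA held both the highest and the lowest of the infarcted rats. The MI mean was 25.8 ± 3.20 CPM (SD, n = 4) and the Sham mean 13.2 ± 2.94 CPM (SD, n = 4), a log2 fold change of 0.98 with a standard error of 0.17 (edgeR adjusted p = 0.000596).

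In the second class, Lum (ENSRNOG00000004610) encodes lumican, a regulator of collagen fibril thickness best known from the cornea. It was at 53.9, 84.6, 68.7 and 75.5 CPM in Sham rats 12, 17, 32 and 38, at 122, 101, 124 and 169 CPM in MI rats 36, 57, 61 and 89, and at 148, 164, 181 and 116 CPM in MI + UA rats 29, 58, 64 and 66. No infarcted heart fell into the Sham range, and MI rat 89 stood out as the highest of its group. Sham averaged 70.7 ± 12.9 CPM and MI 129 ± 28.7 CPM (SD, n = 4 rats each), which gave a log2 fold change of 0.87 with a standard error of 0.15 (edgeR adjusted p = 0.000706).

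Fmod (ENSRNOG00000003183) encodes fibromodulin, which binds the same region of collagen as lumican. Its level was 1.88, 5.20, 4.21 and 3.70 CPM in Sham rats 12, 17, 32 and 38, 16.0, 6.74, 12.4 and 7.09 CPM in MI rats 36, 57, 61 and 89, and 8.74, 8.99, 11 and 4.11 CPM in MI + UA rats 29, 58, 64 and 66. MI rats 36 and 61 were far above the other pair of MI rats, and MI + UA rat 66 lay inside the Sham range. Means of 3.75 ± 1.39 CPM for Sham and 10.5 ± 4.46 CPM for MI (SD, n = 4 rats each) gave a log2 fold change of 1.54 with a standard error of 0.33 (edgeR adjusted p = 0.00374). These values rest on 15 to 36 reads per Sham rat and 43 to 219 reads per MI rat, and the standard error was the largest of the 7 genes. Without MI rat 36 the log2 fold change was 1.25 (edgeR adjusted p = 0.0178).

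MI rat 36 also differed from the other 11 rats in cartilage genes. Col2a1, the main collagen of cartilage, was at 29.6 CPM in this rat, and no other rat exceeded 0.376 CPM. Acan, the large cartilage proteoglycan, was at 9.21 CPM in MI rat 36 and at no more than 2.00 CPM elsewhere. Summed over 7 chondrocyte and tendon markers, the level was 18.4 to 21.8 CPM in Sham, 34.4 to 76.4 CPM in MI and 31.8 to 42.1 CPM in MI + UA. Of these 7 markers 4 passed the test as higher in MI (Sox9, Acan, Col2a1 and Comp), though MI and Sham rats overlapped in Acan and Col2a1. Col2a1 and Tnmd had no read in at least 1 rat of every group, and Acan in at least 1 Sham and 1 MI rat. The sum of 4 smooth muscle markers was also highest in MI rat 36, at 201 CPM, with MI + UA rat 64 next at 151 CPM. The part of the cartilage and smooth muscle genes in the Fmod result was not tested beyond leaving out MI rat 36.

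Prelp (ENSRNOG00000003120) encodes a protein that links basement membrane heparan sulfate to collagen. Its levels were 25.6, 31.3, 31.3 and 31.6 CPM in Sham rats 12, 17, 32 and 38, 58.6, 69.3, 70.2 and 59.8 CPM in MI rats 36, 57, 61 and 89, and 66.3, 59.5, 71.9 and 55.4 CPM in MI + UA rats 29, 58, 64 and 66. All infarcted hearts were well clear of Sham, and the infarcted rats were close to each other. The MI mean of 64.5 ± 6.10 CPM (SD, n = 4) was 2.15-fold the Sham mean of 30.0 ± 2.91 CPM (SD, n = 4), a log2 fold change of 1.10 with a standard error of 0.10 (edgeR adjusted p = 1.20e-06).

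Omd (ENSRNOG00000039560) encodes osteomodulin, a keratan sulfate proteoglycan first described in bone. It was at 10.2, 13, 10.9 and 11.2 CPM in Sham rats 12, 17, 32 and 38, at 15.2, 17.1, 21.4 and 22.2 CPM in MI rats 36, 57, 61 and 89, and at 19.7, 21.4, 20.7 and 15.9 CPM in MI + UA rats 29, 58, 64 and 66. The lowest infarcted heart, MI rat 36, was still above the highest Sham heart, rat 17. Sham averaged 11.3 ± 1.20 CPM and MI 19 ± 3.35 CPM (SD, n = 4 rats each), so that the log2 fold change was 0.75 with a standard error of 0.14 (edgeR adjusted p = 0.00153).

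Promoter sequence is shown for Fmod, which had the second largest change, and Omd, which had the smallest of the 6 that rose, so that a gene at each end of the range can be read. Each run is the 250 bases before the gene's start, read 5′ to 3′ on the strand of the gene, from RefSeq on build GRCr8. The reads were counted on build mRatBN7.2, so these positions cannot be placed on the counted genes. The Fmod window lies at chr13:48045317-48045566 on the plus strand and the Omd window at chr17:15274871-15275120 on the minus strand. Capitals mark matches, on either strand, to 4 motifs: TATAAA (the TATA box), CCAAT (the CCAAT box), GGGCGG (a GC box) and TGANTCA (the AP-1 site).
Fmod: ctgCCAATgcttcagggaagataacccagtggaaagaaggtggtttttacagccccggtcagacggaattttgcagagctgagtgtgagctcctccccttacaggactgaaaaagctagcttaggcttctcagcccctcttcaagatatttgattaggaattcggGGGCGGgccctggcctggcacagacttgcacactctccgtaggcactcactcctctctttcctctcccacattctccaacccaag
Omd: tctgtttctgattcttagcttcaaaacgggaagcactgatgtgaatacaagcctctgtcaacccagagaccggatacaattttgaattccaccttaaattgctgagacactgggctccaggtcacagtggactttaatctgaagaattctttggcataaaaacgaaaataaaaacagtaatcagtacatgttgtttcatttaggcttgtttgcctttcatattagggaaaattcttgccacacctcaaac

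The Fmod window held a CCAAT match and a GGGCGG match, and the Omd window held a match to none of the 4 motifs. Windows were found for 6 of the 9 symbols (Aspn, Lum, Fmod, Omd, Ogn and Podn). Among these 6, TATAAA was found in Ogn, CCAAT in Lum and Fmod, GGGCGG in Fmod and Podn, and TGANTCA in none. Of 33469 promoter windows of the same length, 12.9% held TATAAA, 34.0% CCAAT, 30.5% GGGCGG and 6.34% TGANTCA. None of the 4 motifs was in all 4 of the windows that belong to risen genes (Aspn, Lum, Fmod and Omd).

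Several of these genes lie near each other in the genome. Genes outside the 9 symbols that were not tested were passed over in the order given here. On that basis Dcn and Lum stand in RefSeq order between Btg1 and Epyc, and Prelp and Fmod between Optc and Btg2. Ogn, Omd and Aspn follow each other in a stretch that overlaps Cenpp, ahead of Ecm2. In the first pair Lum had a log2 fold change of 0.87 and Dcn one of 0.19, and in the second Prelp had 1.10 and Fmod 1.54. The tested genes nearest to these clusters did not pass in MI versus Sham. Their log2 fold changes were 0.11 for Btg1, 0.54 for Epyc, 1.16 for Optc, 0.05 for Btg2, 0.35 for Cenpp and 0.27 for Ecm2. Of the tested genes nearest to Bgn, Zfp275 had a log2 fold change of 0.10 without passing. Slc6a8, the creatine transporter gene, fell, with a log2 fold change of −0.46 (edgeR adjusted p = 0.00140).

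**Figure D2:**
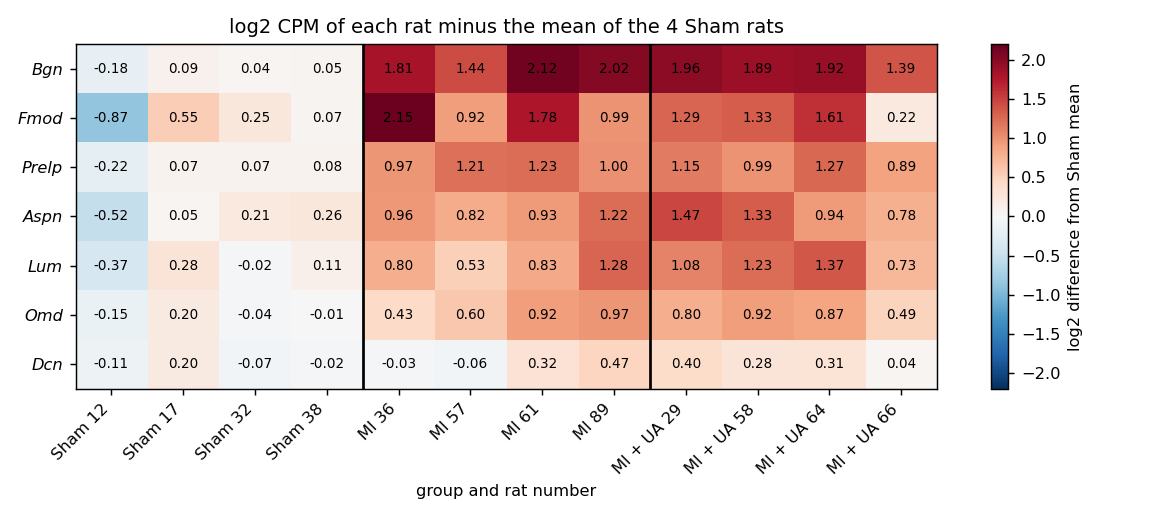
Difference of each rat's log2 CPM from the mean of the 4 Sham rats, by gene (vertical) and rat (horizontal, grouped as Sham, MI and MI + UA). Red cells are above the Sham mean and blue cells below it. Bgn reached 2.12 in MI rat 61, and Dcn ranged from −0.06 to 0.47 in the 4 MI rats.

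The rats differed among themselves along the whole set. Sham rat 12 was the lowest of its group in all 7 genes, and MI + UA rat 66 was the lowest of its group in all 7. MI rat 57 was the lowest MI rat in 5 of the 7, and MI rat 89 the highest in 4. Sham rat 12 and MI + UA rat 66 also had the lowest mean of the 10 fibroblast markers in their groups, 5.60 and 6.32 on the log2 CPM scale. In MI the lowest such mean was that of rat 36, at 6.26, with rat 57 next at 6.28, and the highest was that of rat 61, at 6.70. The part of those markers in the order of the rats was not tested.

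Within the set, the balance moved from decorin toward biglycan. Of the reads on all 7 genes, Bgn took 25.7% to 28.1% in Sham, 46.3% to 52.5% in MI and 44.4% to 48.0% in MI + UA. Dcn took 49.8% to 54.0% in Sham, 27.3% to 31.2% in MI and 29.2% to 33.2% in MI + UA. MI and Sham did not overlap in either share.

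A ratio of 2 genes within one library does not depend on how libraries are scaled, so the response of gene pairs was compared that way. The Bgn to Dcn ratio of reads was 0.490 to 0.565 in Sham and 1.49 to 1.88 in MI, a difference of 1.67 on the log2 scale. All 4 MI rats were above all 4 Sham rats, and the two-sided exact permutation p was 0.0286, the smallest that 4 rats against 4 allow, or 0.143 after adjustment over the 10 ratio tests run. The Lum to Dcn ratio, a pair chosen after the values were seen, was 0.189 to 0.249 in Sham and 0.321 to 0.403 in MI, a log2 difference of 0.68 (exact permutation p = 0.0286, adjusted 0.143). No ratio test passed 0.05 after adjustment.

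The other 3 ratios overlapped between MI and Sham. Fmod to Lum differed by 0.63 on the log2 scale (exact permutation p = 0.200), with MI rat 36 the highest at 0.131 and MI rat 89 the lowest MI rat at 0.0419. Prelp to Fmod differed by −0.38 (exact permutation p = 0.400) and Omd to Aspn, also chosen after the values were seen, by −0.26 (exact permutation p = 0.257).

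**Figure D3:**
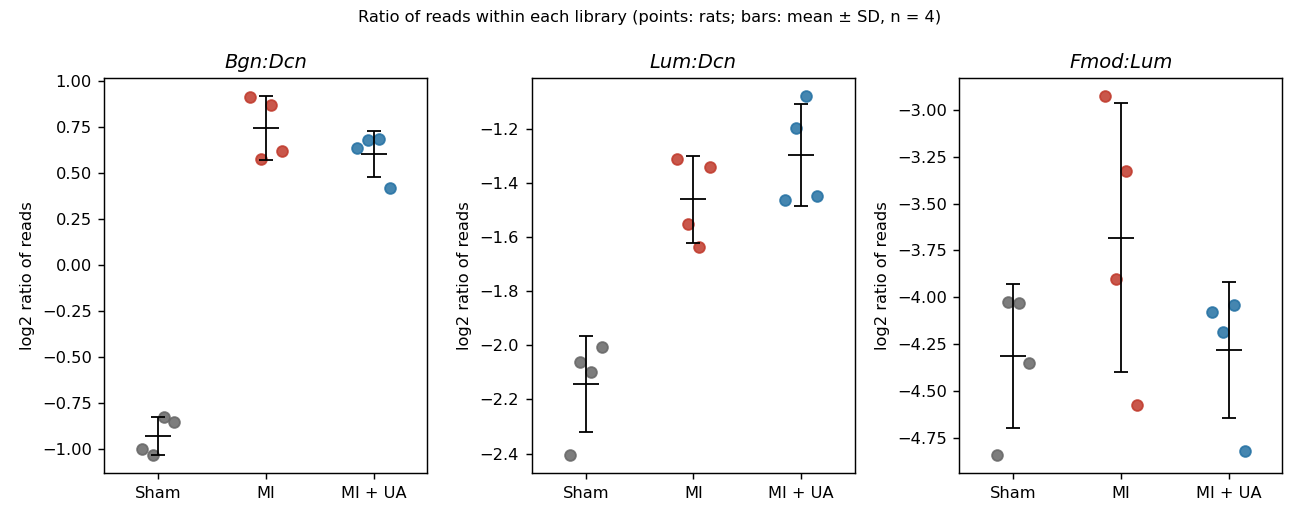
Log2 ratio of reads of 2 genes within each library for Bgn to Dcn, Lum to Dcn and Fmod to Lum, by group. Points are rats, and bars are the mean ± SD (n = 4), with a separate vertical scale in each panel that does not start at 0. The MI rats lie apart from the Sham rats in the first and second panels and overlap them in the third.

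The hearts also differed in cell markers. Of 10 fibroblast markers 6 rose and none fell in MI versus Sham, and their summed level was 1200 to 1419 CPM in Sham, 1427 to 1868 CPM in MI and 1514 to 1844 CPM in MI + UA. Of 6 activated fibroblast markers 5 rose, of 8 macrophage markers 7 rose, and of 9 cardiomyocyte markers 8 fell. The sum of the cardiomyocyte markers was 52290 to 58971 CPM in Sham and 36730 to 43103 CPM in MI. Of 6 endothelial markers 1 fell, of 4 smooth muscle markers 2 rose, and of 5 valve and epicardium markers 2 rose. The part of these shifts in the proteoglycan results was not tested.

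Set against the mean log2 CPM of the 10 fibroblast markers in the same library, 6 of the 7 genes had a higher mean in MI than in Sham, and Dcn a lower one. Bgn was 1.19 higher in MI than in Sham on that scale and Prelp 0.45 higher, with no overlap of the rats in either. Dcn was lower, by a difference of −0.48, again with no overlap. Fmod (0.81), Aspn (0.33), Lum (0.21) and Omd (0.07) had positive differences with rats that overlapped. The order depended on the list: against the mean of the 6 activated fibroblast markers, a reference added after the values were seen, all 7 genes were lower in MI, from −0.02 for Bgn to −1.69 for Dcn. The rats overlapped there for Bgn, Fmod and Prelp. These are descriptions without a test, and neither scale was planned beforehand.

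Set against fibrillar collagen, Bgn had a higher mean in MI than in Sham, and the means of 5 other genes were lower in MI. These values are also descriptions without a test, on a scale that was not planned beforehand. For every 100 reads on Col1a1, Col1a2 and Col3a1 together, Bgn had 19.9 ± 0.613 reads (SD, n = 4) in Sham and 26.9 ± 3.65 reads (SD, n = 4) in MI, and these rats did not overlap. Fmod had 0.446 ± 0.133 reads (SD, n = 4) in Sham and 0.484 ± 0.197 reads (SD, n = 4) in MI, which overlapped. That order rested on single rats: the MI mean was 0.408 without MI rat 36, below Sham, and the Sham mean was 0.505 without Sham rat 12, above MI. Dcn had 37.8 ± 3.12 reads in Sham and 16.0 ± 2.05 reads in MI (SD, n = 4 each), without overlap.

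On the same scale Lum had 8.55 ± 0.723 reads in Sham and 5.80 ± 0.333 in MI, and Omd 1.38 ± 0.0922 and 0.869 ± 0.162 (SD, n = 4 each), both lower in MI without overlap. Lumican and osteomodulin RNA was thus higher in CPM and lower per collagen read in the same hearts. Prelp, at 3.65 ± 0.107 in Sham and 3.03 ± 0.872 in MI, and Aspn, at 1.60 ± 0.239 and 1.18 ± 0.132 (SD, n = 4 each), had lower means with rats that overlapped.

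Urolithin A was compared with vehicle among infarcted rats to ask whether it shifted these genes. In MI + UA versus MI, 0 of the 7 genes passed the edgeR test after adjustment (adjusted p = 0.9997 for each), and 0 had an unadjusted p under 0.05. Over all genes tested, 0 passed after adjustment (0.0%), and 3.79%, or 689 genes, had an unadjusted p under 0.05. DESeq2 passed 0 of the 7 as well. The smallest unadjusted p among the 7 was 0.135, that of Lum. Log2 fold changes were positive in 4 genes and negative in 3, with a median of 0.02, and the rats overlapped in all 7. Among all genes tested, 1.18% had every MI + UA rat above every MI rat and 1.16% every one below.

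The intervals show how large a difference could have been missed. Lum had a log2 fold change of 0.23 with a 95% interval from −0.08 to 0.54, and Fmod one of −0.43 with an interval from −1.03 to 0.17. The values of the other genes were nearer to 0, at 0.16 for Aspn, 0.07 for Dcn, 0.02 for Omd, −0.03 for Prelp and −0.06 for Bgn. For Prelp, the most precisely measured, the 95% interval ran from 0.851-fold to 1.13-fold. Ratios within libraries also overlapped between MI + UA and MI in all 5 pairs, with exact permutation p from 0.200 to 0.600.

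Leaving out single rats turned the direction of Dcn, Bgn, Prelp or Omd, and leaving out MI + UA rat 66 turned that of Bgn and Prelp. Without rat 66, the log2 fold change of Bgn was 0.05, that of Prelp 0.03 and that of Fmod −0.18, while Lum was at 0.34, Aspn at 0.28, Dcn at 0.14 and Omd at 0.12. With the rat counted in the MI group, all 7 values were positive: Lum 0.37, Aspn 0.32, Dcn 0.17, Omd 0.17, Bgn 0.14, Prelp 0.08 and Fmod 0.04. The unadjusted edgeR p of Lum was then under 0.05, at 0.0267 without the rat and 0.0129 with it in MI, and that of Aspn was 0.0800 and 0.0363. Leaving out MI rat 89, the highest MI rat for Lum, also gave Lum an unadjusted edgeR p of 0.0127, with a log2 fold change of 0.39. After adjustment over all genes tested none of the 7 passed in any of these fits, with adjusted p-values that rounded to 0.999 or more.

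**Figure D4:**
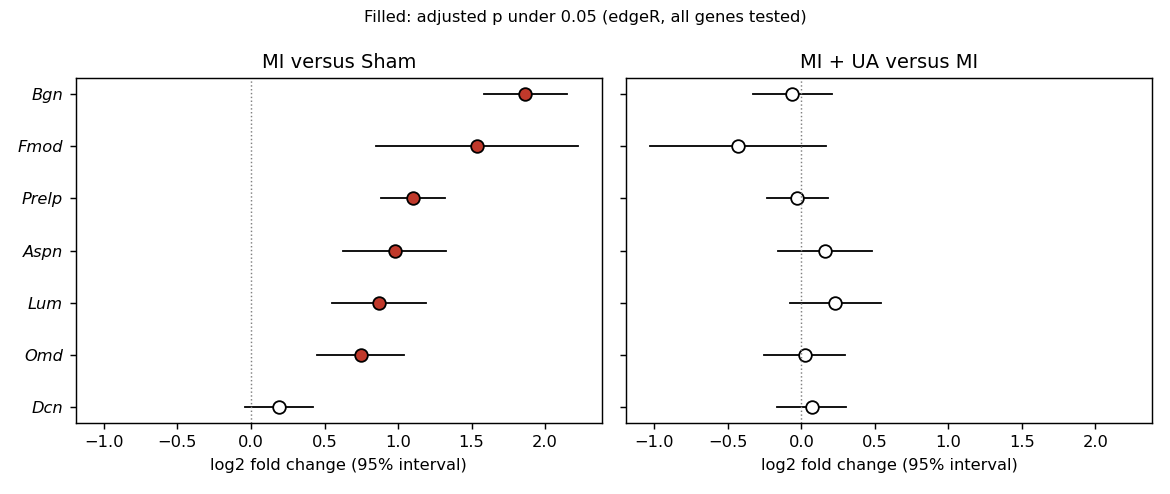
Log2 fold change of each gene on the horizontal axis, with its 95% interval, in MI versus Sham (left) and MI + UA versus MI (right). Filled points had an edgeR adjusted p under 0.05. At left 6 of 7 points are filled, from 0.75 for Omd to 1.87 for Bgn, and at right all 7 intervals include 0.

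The MI + UA rats were also above Sham. Of the 7 genes 6 rose in MI + UA versus Sham, where 9.44% of all genes tested passed, 5.16% with a rise and 4.27% with a fall. In 5 of the 7 every MI + UA rat was above every Sham rat, which held for 7.83% of all genes, and the opposite order held for 6.46%. This comparison shares the Sham rats with the first and so does not repeat it independently. Log2 fold changes were 1.80 for Bgn, 1.14 for Aspn, 1.10 for Lum, 1.08 for Prelp and 0.77 for Omd. Without rat 66 they were 1.92, 1.25, 1.21, 1.14 and 0.86 in the same order, each still past the test. Dcn had a value of 0.26 (edgeR adjusted p = 0.171), with 15 of 16 pairs of an MI + UA and a Sham rat in that direction, and 0.33 without rat 66 (edgeR adjusted p = 0.0696).

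Fmod passed in MI + UA versus Sham, with a log2 fold change of 1.10 and a standard error of 0.34 (edgeR adjusted p = 0.0425), although MI + UA rat 66 lay among the Sham rats. Its call was lost when Sham rat 12, 32 or 38 or MI + UA rat 29, 58 or 64 was left out. Without rat 66 it held, with a log2 fold change of 1.36 (edgeR adjusted p = 0.00505), and with that rat counted in MI the value was also 1.36 (edgeR adjusted p = 0.0213). Without Sham rat 12, the lowest of all rats for Fmod, the log2 fold change was 0.87 (edgeR adjusted p = 0.146).

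Of 9 other genes of the family 8 could be tested, and 2 rose and none fell in MI versus Sham, with a list median of 0.62. For comparison with this and the later lists, 5.82% of all genes tested rose and 5.53% fell. The median log2 fold change of all genes tested was 0.03. Chad (ENSRNOG00000003304), which encodes the cartilage protein chondroadherin that binds collagen and integrin, was at 1.25, 0.866, 1.18 and 1.07 CPM in Sham rats 12, 17, 32 and 38 and at 18.3, 5.96, 10.2 and 8.55 CPM in MI rats 36, 57, 61 and 89. In MI + UA rats 29, 58, 64 and 66 it was at 14.2, 9.50, 10.0 and 10.4 CPM. Every infarcted heart was thus several times the highest Sham heart, and the log2 fold change in MI versus Sham was 3.32 with a standard error of 0.34 (edgeR adjusted p = 2.31e-06). This gene was at 6 to 10 reads per Sham library. Tsku, which encodes the signalling modulator tsukushi, averaged 6.98 ± 1.49 CPM among Sham rats and 11.8 ± 1.37 CPM among MI rats (SD, n = 4 rats each), a log2 fold change of 0.75 (edgeR adjusted p = 0.00644).

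Genes for the sugar chains that these core proteins carry rose in part. Of 7 genes for the linker that joins chain to protein 2 rose, Xylt1 with a log2 fold change of 1.02 and B3gat3 with 0.43. The median of the linker list was 0.04, close to the 0.03 of all genes tested. Xylt1 encodes a xylosyltransferase that adds the first sugar. Of 15 chondroitin and dermatan sulfate genes tested 5 rose, with a median of 0.39: Dse, the epimerase that turns chondroitin into dermatan sulfate (log2 fold change 1.06), the sulfotransferase gene Chst12 (0.95), the chain-starting gene Csgalnact1 (0.56), the polymerase gene Chsy1 (0.43) and Dsel. Of 6 keratan sulfate genes tested 2 rose, B4galt1 with 0.55 and B3gnt2 with 0.34, with a median of 0.43. No gene of these lists fell. These counts were sensitive to single rats. The linker count was 1 without Sham rat 32 or 38 or MI rat 61. The chondroitin and dermatan sulfate count was 3 without Sham rat 12 or 17 or MI rat 61 or 89, and 2 without Sham rat 38. The keratan sulfate count was 1 without Sham rat 12 or 38, MI rat 57 or 61, or MI + UA rat 64 or 66.

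The collagens and fibre partners to which the proteoglycans bind rose throughout, in 13 of 13 genes tested, with a median of 1.04. Col12a1, a collagen on the fibril surface, had a log2 fold change of 2.30, fibronectin (Fn1) 2.09, Col1a1 1.56 and Col3a1 1.45. The rise of Bgn, 1.87, was thus within the range of the fibre genes, and that of Dcn, 0.19, was not called. Of 13 protease and processing genes 4 rose, with a median of 0.70: Mmp14 (0.92), Bmp1 (0.76), the procollagen enhancer Pcolce (0.72) and Mmp2 (0.70). BMP1 is known to remove the propeptide of biglycan.

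Of 20 receptors and ligands 8 rose and 1 fell, with a median of 0.61. Ccn4, the gene of a matricellular protein that binds decorin and biglycan, had a log2 fold change of 3.41 from a level near the limit of counting, 0.156 ± 0.182 CPM (SD, n = 4) in Sham. Cd14, the co-receptor of Toll-like receptors, rose by 1.40 on the log2 scale. The TGF-beta genes Tgfb2 (1.31), Tgfb3 (1.00) and Tgfb1 (0.41, edgeR adjusted p = 0.0339) rose as well. The biglycan receptor genes Tlr2, with a log2 fold change of 0.96 (edgeR adjusted p = 0.0579), and Tlr4, with 0.41 (edgeR adjusted p = 0.0640), did not pass. Kdr, a VEGF receptor gene that is also among the endothelial markers, fell by 0.50 on the log2 scale. In MI + UA versus MI, no gene of these 7 lists passed the test.

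**Figure D5:**
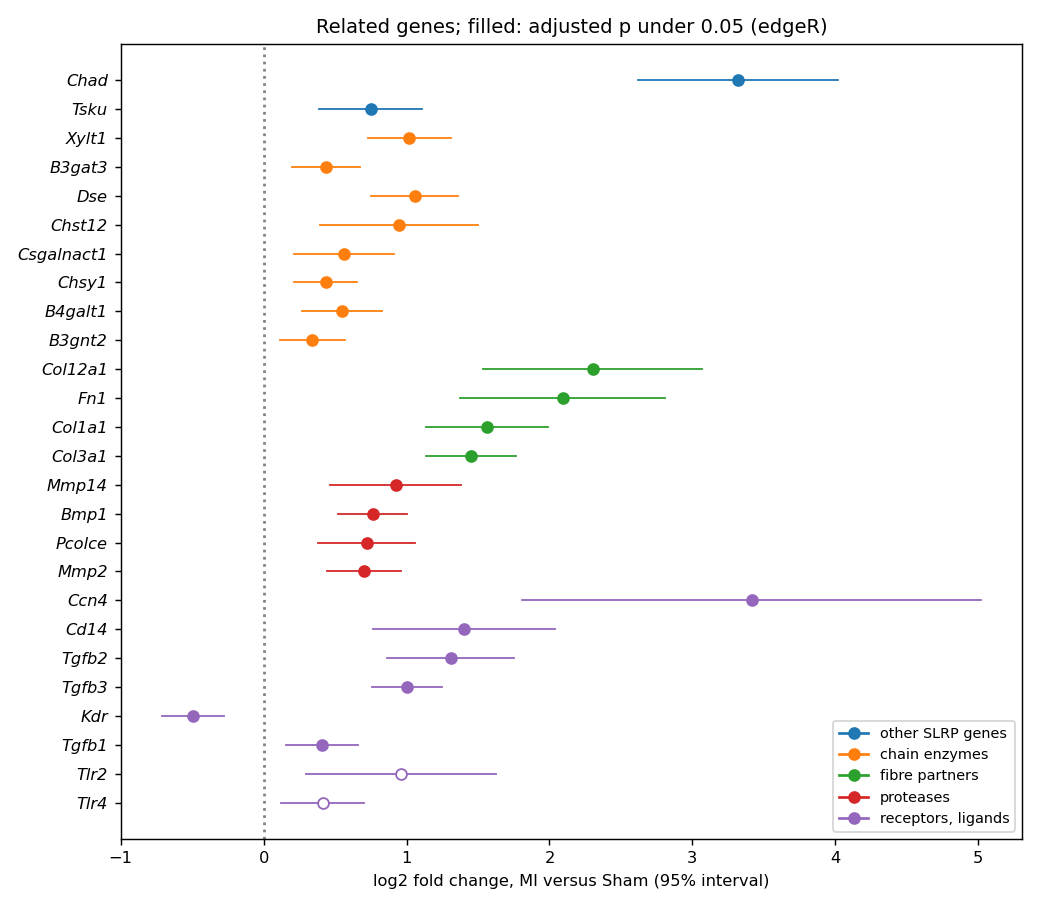
Log2 fold change in MI versus Sham, with its 95% interval, of the named genes of the family, the chain enzymes, the fibre partners, the proteases and the receptors and ligands (colours). Filled points had an edgeR adjusted p under 0.05. Chad (3.32) and Ccn4 (3.41) have the largest values, Kdr is the one filled point under 0, and Tlr2 and Tlr4 are open.

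The genes whose pattern over the 12 rats was most like that of each risen gene were found by the root mean square difference of centred log2 CPM, among 10923 genes with a symbol and an average log2 CPM of at least 1. For Bgn, with a spread (SD) of 0.88 over the rats, they were Itga11 (0.151), Antxr1 (0.213) and Loxl1 (0.225), a collagen-binding integrin, a collagen-binding membrane receptor and a matrix crosslinking enzyme. For Prelp they were Map1b (0.101), Lrp1 (0.123) and Loxl2 (0.133), and for Lum C5ar2 (0.128), Ccdc80 (0.152) and Fam171b (0.155). Genes near Aspn included Serpine2 (0.183) and Dzip1 (0.206), and those nearest to Omd were Smim14 (0.0798), C1qc (0.0929) and Actn1 (0.107). Fmod had the most distant neighbours, Gal3st4 (0.291), Fzd2 (0.355) and Tagln (0.359).

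By the same measure, Lum and Omd were the closest pair among the 7 genes (0.207), followed by Aspn and Lum (0.221). Dcn and Bgn, both of the first class, were the most distant pair (0.765). The 12 rats behind these values share the split into Sham and infarcted hearts, so the values describe that split together with the spread between rats.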

How the data were processed

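Rat heart RNA from 12 animals was analysed. The authors depleted ribosomal RNA, prepared strand-specific paired-end libraries, mapped reads with STAR 2.6.1c to mRatBN7.2 and counted them per gene with HTSeq (versions per the submitters' processing notes, with MultiQC 1.8). The sample labels call the molecule polyA RNA. The deposited values are raw counts per gene. Groups were taken from the sample labels. The study left out 1 more MI + UA library, which is not analysed here.

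A gene needed a sum of at least 10 counts over the 12 libraries. Genes were compared with edgeR 4.0.16 (limma 3.58.1, R 4.3.3) after TMM normalization, using the quasi-likelihood test on all 3 groups in one fit without covariates. P-values were adjusted by the Benjamini-Hochberg method over all genes tested. The standard error is the log2 fold change divided by the square root of the F statistic, and 95% intervals use its degrees of freedom. Log2 CPM used a prior count of 1. Ratios were compared by two-sided exact permutation tests. DESeq2 1.42.0, other scalings and filters, and leaving out each rat were alternatives. The fitting was tested on simulated data. Nothing in the labels beyond separate rat numbers describes the animals' litters or batches.

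The genes and lists were chosen with earlier results of these data known. From each related list, up to 4 called genes per direction with the largest change were named, plus Bmp1, Tgfb1, Tlr2, Tlr4, Col1a1 and Col3a1 whatever their values (Bmp1, Col1a1 and Col3a1 met both parts). Dsel, the markers, Slc6a8 and the other neighbours, and Col1a2 were named outside that rule or by position. Likeness named the 3 nearest genes per risen gene, of which 1 is not reported here.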

Additional observations from a re-analysis of the deposited data

Results flagged for a closer look

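In 36 sets of 4 rats examined, 2 had a rat standing far from the others, where chance gives about 1 in 20 sets. Bgn in MI + UA was one: rat 66 was the lowest at 8.73 log2 CPM, against 9.23 to 9.31 in the other rats, a gap of 0.871 of the group's range. Prelp in Sham was the other: rat 12 was the lowest at 4.68 log2 CPM, against 4.97 to 4.99 in the other rats, a gap of 0.957 of the range. Both rats were also the lowest of their group in the other 6 genes and in mean fibroblast markers, and the part of those markers in the gap was not tested.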

How the results depend on the processing

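No paired analysis was possible because each rat belongs to 1 group and the groups share no replicate number. In MI versus Sham the number of proteoglycan genes that rose was 6 under every alternative run, and Dcn passed under none. Over all 19 alternatives the log2 fold change of Bgn lay between 1.77 and 1.98 and that of Fmod between 1.25 and 1.74. In MI + UA versus MI, 3 genes of the whole table passed with no filter on low counts and 0 to 1 when a rat was left out. Moving rat 66 into the MI group turned the log2 fold change to 0.14 for Bgn, 0.035 for Fmod and 0.077 for Prelp, and the log2 Prelp to Fmod ratio to −0.13. Leaving out 1 rat gave ranges that cross 0 in that comparison: −0.0058 to 0.18 for Dcn, −0.18 to 0.054 for Bgn, −0.090 to 0.034 for Prelp, −0.079 to 0.12 for Omd and −0.20 to 0.0026 for the log2 Omd to Aspn ratio. In MI versus Sham it gave log2 Bgn to Dcn ratios of 1.61 to 1.73 and Lum to Dcn ratios of 0.60 to 0.74, with an exact p of 0.0571, the smallest that 4 against 3 rats allow. The called genes ranged over 1 to 2 (linker), 2 to 6 (chondroitin and dermatan sulfate) and 1 to 2 (keratan sulfate). The keratan sulfate count was 1 with DESeq2 size factors and with TMM without the 13 mitochondrially encoded protein genes. It was also 1 in a fit of the 2 groups alone and with rat 66 in MI. The planned ratios with Ogn or Podn were not run. The low counts of Fmod, 15 reads in Sham rat 12, limit its precision.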
